A study of Rattus norvegicus with 93 samples.

Results

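Hif1a, Adm and Stc1 are 3 genes of the response to low oxygen, and they were followed in the bone marrow of rats given topotecan, oxaliplatin or both. They were chosen by symbol: a probe set had to carry that symbol alone, and where a gene had several, the one with the highest average across all 93 arrays stood for it. The 3 genes are 3 of the 7810 genes that the array measured in this way. Hif1a was read by probe set 1387076_at, Adm by 1387219_at and Stc1 by 1377404_at, and Stc1 had a further probe set, 1396101_at, of lower mean.

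The rats were male Sprague-Dawley animals, aged 8 weeks per the labels, and each received 2 intravenous infusions. Topotecan inhibits topoisomerase I and was infused at 4.7 mg/kg. Oxaliplatin is a DNA-crosslinking platinum drug and was infused at 15 mg/kg. Groups are named in the order of infusion, D5W being dextrose in water, the vehicle of oxaliplatin, and NaCl being saline, the vehicle of topotecan. Rats of the 6 drug groups received both agents as topotecan/oxaliplatin or as oxaliplatin/topotecan, topotecan by itself as topotecan/D5W or as D5W/topotecan, and oxaliplatin by itself as oxaliplatin/NaCl or as NaCl/oxaliplatin. The time-matched controls received both vehicles, as NaCl/D5W or D5W/NaCl, and femoral marrow was taken 1, 6 or 24 h after the end of dosing. Each of the 24 groups held 4 rats, apart from 3 groups of 3 rats (oxaliplatin/NaCl at 6 h, and topotecan/D5W and D5W/NaCl at 24 h). Each rat gave 1 array, values are log2 RMA signal, and a gene passed where the adjusted p of limma over all 12532 probe sets was under 0.01, with no minimum fold. Each treatment was set against the control rats of the same time whose vehicles followed the same infusion order, so treatments of 1 order share their controls. The study left out 1 oxaliplatin/NaCl array at 6 h as an outlier before the values were computed. The mean of the haemoglobin genes lay between 14.26 and 14.96 on this scale in all drug and control rats, and that of the neutrophil markers between 12.15 and 13.26, so genes of both marrow lineages were read in every rat.

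Hif1a encodes the oxygen-regulated subunit of the transcription factor HIF-1. In normal oxygen the Egln prolyl hydroxylases mark the HIF-1 alpha protein and the Vhl ubiquitin ligase sends it for degradation, so HIF-1 is mainly controlled at the level of the protein, which an mRNA array does not read. Adm encodes adrenomedullin, a secreted peptide that widens blood vessels and steadies the endothelial barrier, and Stc1 encodes stanniocalcin 1, a secreted glycoprotein known in fish as a calcium-lowering hormone and in mammals as a local signal. Both are known HIF-1 targets and are also induced by inflammatory and other stress signals.

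The promoters of Hif1a and Adm are shown because HIF-1 binds DNA at the core letters ACGTG or GCGTG. They are RefSeq sequences of build GRCr8 from 250 bases before to 50 bases after the gene's start, on the plus strand, at chr6:98359648-98359947 for Hif1a and chr1:174179950-174180249 for Adm. Capitals mark ACGTG on either strand.
Hif1a: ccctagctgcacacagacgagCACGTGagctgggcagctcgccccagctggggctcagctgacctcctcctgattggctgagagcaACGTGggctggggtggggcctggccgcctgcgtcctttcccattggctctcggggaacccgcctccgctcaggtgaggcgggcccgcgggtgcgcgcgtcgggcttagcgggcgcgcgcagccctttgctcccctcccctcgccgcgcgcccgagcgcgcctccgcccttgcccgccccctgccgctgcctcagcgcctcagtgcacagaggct
Adm: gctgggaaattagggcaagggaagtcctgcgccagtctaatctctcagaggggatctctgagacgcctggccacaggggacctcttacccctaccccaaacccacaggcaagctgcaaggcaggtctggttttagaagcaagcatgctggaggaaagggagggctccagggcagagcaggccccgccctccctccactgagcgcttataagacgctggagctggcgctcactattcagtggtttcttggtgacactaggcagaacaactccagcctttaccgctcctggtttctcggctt
The Hif1a window held ACGTG 3 times, at -229 to -225 on the minus strand, at -228 to -224 on the plus strand in an overlapping position, and at -164 to -160 on the plus strand, counted from the start. The Adm window held neither ACGTG nor GCGTG. Of the 33469 rat promoters of this length in the same RefSeq table, 19.3% held ACGTG and 29.7% held GCGTG on either strand, so a match of this kind was common.

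The 3 genes passed against vehicle at different times, and always upwards. Stc1 was higher at 1 h, in 5 of 6 treatments, and in none at 6 or 24 h. Adm was higher in 3 of 6 treatments at 1 h, in 6 of 6 at 6 h and in 4 of 6 at 24 h. Hif1a was higher in 0 of 6 treatments at 1 h (1 at an unadjusted p under 0.05), in 5 of 6 at 6 h and in 3 of 6 at 24 h. Among all probe sets, the share that passed upwards in 1 comparison was 0.136% to 9.77% at 1 h, 3.78% to 17% at 6 h and 16.1% to 25.9% at 24 h. Marrow is a mixture of cells, and fewer cells of a type and less RNA per cell cannot be told apart in these values. Summed over the 18 comparisons with vehicle, Adm passed 13, Hif1a 8 and Stc1 5. In the 23 control rats the signal ranged from 5.62 to 6.34 for Adm (median 5.88), from 10.66 to 11.33 for Hif1a (median 10.99) and from 6.13 to 6.67 for Stc1 (median 6.46). None of the 3 genes passed between successive times in control rats or between the NaCl/D5W and D5W/NaCl controls (n = 3 or 4 rats a group, limma, smallest adjusted p 0.325, for Adm in NaCl/D5W rats at 6 h against 1 h).

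**Figure D1:**
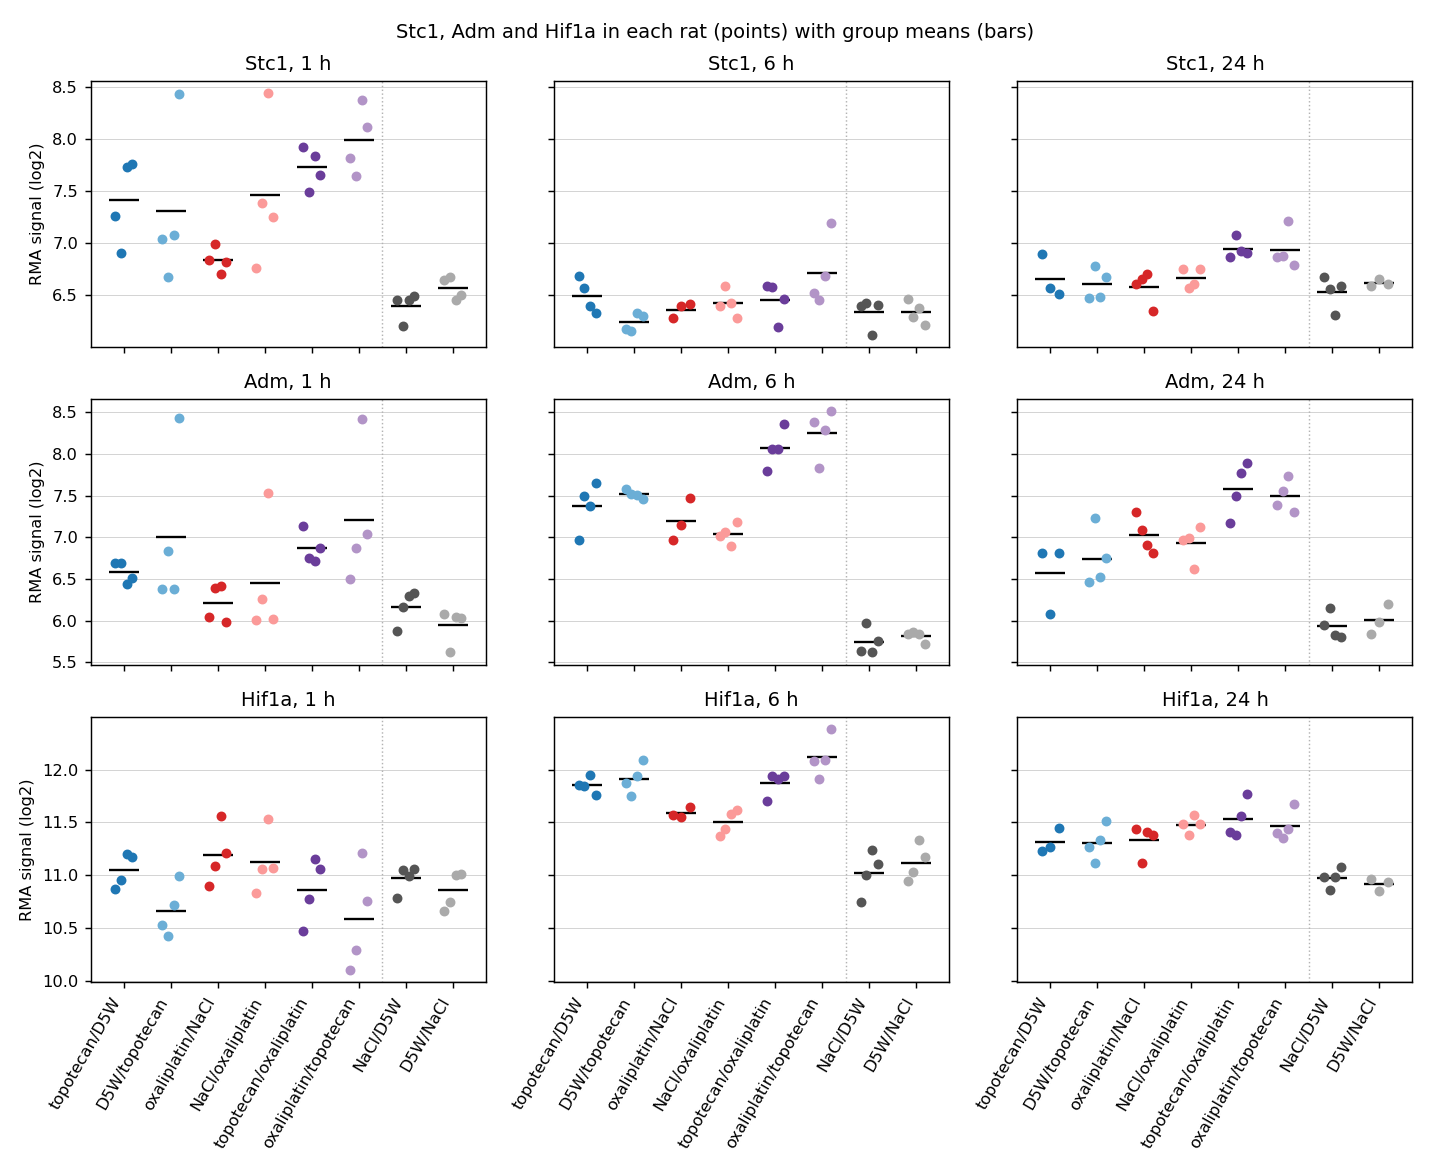
Signal of Stc1, Adm and Hif1a (log2 RMA, vertical axis) in every rat at 1, 6 and 24 h, by infusion group, with group means as bars and the 6 drug groups left of the 2 vehicle groups. At 6 h every drug-treated rat read Adm at 6.89 or more and every vehicle rat at 5.97 or less, while Stc1 stands apart from vehicle at 1 h.

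Adm gave the largest differences of the 3 genes, and these were at 6 h. After topotecan/D5W the 4 rats read 6.97, 7.38, 7.49 and 7.65 at 6 h, against 5.62, 5.64, 5.75 and 5.97 in NaCl/D5W rats. With the infusions reversed, D5W/topotecan rats read 7.46, 7.51, 7.52 and 7.58, against 5.72, 5.84, 5.85 and 5.87 in D5W/NaCl rats. Each topotecan-only rat was thus above each control, and the D5W/topotecan rats lay within 0.12 of each other. Oxaliplatin/NaCl rats read 6.96, 7.15 and 7.47, against the same D5W/NaCl rats. NaCl/oxaliplatin rats read 6.89, 7.01, 7.07 and 7.18, against the NaCl/D5W rats. Here too no treated rat overlapped the controls. Both combinations were higher still, at 7.80, 8.05, 8.06 and 8.36 in topotecan/oxaliplatin rats, against the NaCl/D5W rats. Oxaliplatin/topotecan rats read 7.83, 8.29, 8.38 and 8.51, against the D5W/NaCl rats.

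On the log2 scale the combinations stood furthest from vehicle at 6 h, by 2.32 (SE 0.21) for topotecan/oxaliplatin and by 2.43 (SE 0.29) for oxaliplatin/topotecan. Topotecan by itself gave 1.62 (SE 0.21) as topotecan/D5W and 1.70 (SE 0.29) as D5W/topotecan. Oxaliplatin by itself gave 1.37 (SE 0.32) as oxaliplatin/NaCl and 1.29 (SE 0.21) as NaCl/oxaliplatin. These are folds of 2.45, after NaCl/oxaliplatin, to 5.39, after oxaliplatin/topotecan, with adjusted p of limma between 5.92e-12 and 0.00164. The exact two-sided permutation p over rats was 0.0286 in each of the 6 comparisons, the smallest that 4 against 4 or 3 against 4 rats allow, and 11.4% to 19.7% of all probe sets lay wholly above their controls in the same comparisons. Of all probe sets, 15.1% passed upwards at 6 h with topotecan/D5W and 14.1% with D5W/topotecan (40.7% and 34.5% in either direction). Oxaliplatin/NaCl called 3.78% upwards and NaCl/oxaliplatin 5.54% (11% and 15.2% in either direction). The shares were 17% for topotecan/oxaliplatin and 14.2% for oxaliplatin/topotecan (44.6% and 41.8% in either direction), so a call at 6 h was in itself more frequent wherever topotecan had been given. The difference of Adm lay at the 99.2 to 99.7 percentile of all probe sets in these 6 comparisons. Without animal 46 the oxaliplatin/NaCl comparison was 1.24 with an adjusted p of 0.0137.

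At 24 h Adm remained above vehicle in 4 treatments. Topotecan/D5W rats read 6.09, 6.81 and 6.82, against 5.81, 5.83, 5.95 and 6.15 in NaCl/D5W rats, and D5W/topotecan rats 6.47, 6.52, 6.76 and 7.23, against 5.84, 5.98 and 6.20 in D5W/NaCl rats. Oxaliplatin/NaCl rats read 6.81, 6.91, 7.09 and 7.30, against the same D5W/NaCl rats, and NaCl/oxaliplatin rats 6.62, 6.97, 6.99 and 7.12, against the NaCl/D5W rats. Topotecan/oxaliplatin rats read 7.17, 7.50, 7.77 and 7.89, against the NaCl/D5W rats, and oxaliplatin/topotecan rats 7.30, 7.39, 7.56 and 7.73, against the D5W/NaCl rats. The treated groups overlapped the controls only after topotecan/D5W, through animal 35 at 6.09, while 21.5% to 28.6% of all probe sets lay wholly above their controls at this time. Adm was 1.65 (SE 0.21) above vehicle after topotecan/oxaliplatin, 1.49 (SE 0.32) after oxaliplatin/topotecan, 0.99 (SE 0.21) after NaCl/oxaliplatin and 1.02 (SE 0.32) after oxaliplatin/NaCl, with adjusted p of limma of 7.94e-09 to 0.00587. After topotecan alone the differences of 0.63 (SE 0.23) and 0.73 (SE 0.32), for topotecan/D5W and D5W/topotecan, did not pass (adjusted p 0.0198 and 0.0524), although topotecan/D5W passed without animal 35, at 0.88 (adjusted p 0.00341). The oxaliplatin/NaCl call at 24 h rested on few rats: it was lost without animal 41 or 42, which carried high skeletal muscle signal, or without control animal 17 or 18 (0.93 to 1.01, adjusted p 0.0136 to 0.0275), after a second quantile normalization it was 0.88 (adjusted p 0.0126), and without the muscle-high arrays it was 0.86 (adjusted p 0.0654). Calls were common at 24 h: topotecan/D5W called 16.1% of all probe sets upwards and D5W/topotecan 18.1% (33.4% and 36.4% in either direction), oxaliplatin/NaCl 19.6% and NaCl/oxaliplatin 24.9% (45.9% and 55.1%), and topotecan/oxaliplatin 25.9% and oxaliplatin/topotecan 21.8% (61.1% and 55.1%).

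At 1 h Adm was uneven between rats. D5W/topotecan rats read 6.38, 6.38, 6.84 and 8.43, against 5.62, 6.03, 6.04 and 6.08 in D5W/NaCl rats. Oxaliplatin/topotecan rats read 6.50, 6.87, 7.04 and 8.42, against the same controls. Both groups lay wholly above the controls, and each held 1 rat far above the rest. Topotecan/oxaliplatin rats read 6.72, 6.75, 6.87 and 7.13, against 5.88, 6.16, 6.30 and 6.34 in NaCl/D5W rats. Topotecan/D5W rats read 6.45, 6.51, 6.69 and 6.69, against the same NaCl/D5W rats. These 2 groups also lay wholly above their controls, without such a rat. In the same comparisons 11% to 12.9% of all probe sets lay wholly above their controls, and 7.21% to 9.77% passed upwards. Oxaliplatin/NaCl rats (5.99, 6.04, 6.40 and 6.41) and NaCl/oxaliplatin rats (6.01, 6.03, 6.26 and 7.53) overlapped theirs. Adm passed after D5W/topotecan (1.06, SE 0.29, adjusted p of limma 0.00349), topotecan/oxaliplatin (0.70, SE 0.21, adjusted p 0.00472) and oxaliplatin/topotecan (1.26, SE 0.29, adjusted p 0.000456). It was 0.42 (SE 0.21) after topotecan/D5W, 0.27 (SE 0.29) after oxaliplatin/NaCl and 0.29 (SE 0.21) after NaCl/oxaliplatin, none of which passed. Without animal 67 the oxaliplatin/topotecan difference was 0.86 and still passed. The D5W/topotecan call was lost without animal 92 (0.59, adjusted p 0.0604) or control animal 14 (0.96, adjusted p 0.0163), and the topotecan/oxaliplatin call without animal 49 or 56 or control animal 1 or 2 (0.60 to 0.70, adjusted p 0.0101 to 0.024). All 3 calls at 1 h were lost when each time was fitted on its own (adjusted p 0.0225 to 0.0598).

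Stc1 was the early gene of the set. Topotecan/oxaliplatin rats read 7.49, 7.66, 7.84 and 7.92 at 1 h, against 6.20, 6.46, 6.46 and 6.49 in NaCl/D5W rats. Oxaliplatin/topotecan rats read 7.64, 7.82, 8.11 and 8.37, against 6.46, 6.51, 6.64 and 6.67 in D5W/NaCl rats. All 8 combination rats were thus about 1 log2 unit or more above their controls. Topotecan/D5W rats read 6.90, 7.26, 7.73 and 7.76, against the NaCl/D5W rats. D5W/topotecan rats read 6.67, 7.04, 7.08 and 8.43, against the D5W/NaCl rats. The second of these groups ran from the edge of its controls to 1 rat far above them, animal 92. NaCl/oxaliplatin rats read 6.76, 7.25, 7.39 and 8.44, against the NaCl/D5W rats. Oxaliplatin/NaCl rats read 6.71, 6.83, 6.84 and 7.00, against the D5W/NaCl rats. No treated rat overlapped its controls in any of the 6 comparisons, and the exact two-sided permutation p was 0.0286 in each, though the margin was 0.001 after D5W/topotecan and 0.036 after oxaliplatin/NaCl. Of all probe sets, 11% to 12.9% lay wholly above their controls at 1 h in the 4 comparisons with topotecan, 4.84% with oxaliplatin/NaCl and 1.18% with NaCl/oxaliplatin. The combinations rose by 1.32 (SE 0.19, topotecan/oxaliplatin) and 1.42 (SE 0.20, oxaliplatin/topotecan) on the log2 scale, which is 2.50- and 2.67-fold, with adjusted p of limma of 1.85e-07 and 1.62e-07. Topotecan/D5W rose by 1.01 (SE 0.19, adjusted p 2.83e-05), D5W/topotecan by 0.74 (SE 0.20, adjusted p 0.00277) and NaCl/oxaliplatin by 1.06 (SE 0.19, adjusted p 0.00306). Oxaliplatin/NaCl was 0.27 (SE 0.20) above vehicle and did not pass (adjusted p 0.659).

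At 1 h, 9.18% of all probe sets passed upwards with topotecan/D5W and 7.67% with D5W/topotecan (35.2% and 27.1% in either direction), and 9.77% with topotecan/oxaliplatin and 7.21% with oxaliplatin/topotecan (42.7% and 34.8%). Oxaliplatin by itself called few, 0.575% as oxaliplatin/NaCl and 0.136% as NaCl/oxaliplatin (1.23% and 0.16%). Stc1 was thus among the few probe sets called after NaCl/oxaliplatin at 1 h, but 1 rat, animal 79, carried much of the value: without it the difference was 0.73 (adjusted p 0.0395). The same call was lost without animal 74 or 80 or without control animal 1, 2 or 7 (0.99 to 1.13, adjusted p 0.0101 to 0.0246). Without animal 92 the D5W/topotecan difference was 0.36 (adjusted p 0.0449), and without control animal 19 it was 0.70 (adjusted p 0.0106). The further Stc1 probe set gave 1.11 (SE 0.25) after topotecan/D5W, 1.77 (SE 0.25) after topotecan/oxaliplatin, 1.24 (SE 0.27) after oxaliplatin/topotecan and 1.23 (SE 0.25) after NaCl/oxaliplatin, all of which passed, whereas D5W/topotecan (0.56, SE 0.27) and oxaliplatin/NaCl (0.25, SE 0.27) did not.

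At 6 and 24 h Stc1 passed in 0 of 12 comparisons with vehicle, with 1 at an unadjusted p under 0.05 (topotecan/oxaliplatin at 24 h). Its differences ranged from -0.09 to 0.38 at 6 h and from -0.04 to 0.41 at 24 h. All 4 topotecan/oxaliplatin rats at 24 h, at 6.86, 6.91, 6.92 and 7.08, were above the 4 NaCl/D5W rats, at 6.31, 6.56, 6.59 and 6.67, and the 4 oxaliplatin/topotecan rats, at 6.79, 6.87, 6.87 and 7.22, were above the 3 D5W/NaCl rats, at 6.59, 6.61 and 6.66. The limma tests of these differences, 0.41 (95% interval 0.03 to 0.79) and 0.32 (-0.11 to 0.75), had adjusted p of 0.051 and 0.189. Of all probe sets, 26.9% lay wholly above their controls after topotecan/oxaliplatin at 24 h and 26.3% after oxaliplatin/topotecan.

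The Hif1a differences were smaller than the largest of Adm and Stc1. After oxaliplatin alone they were alike at 6 and 24 h (0.47 and 0.42 as oxaliplatin/NaCl, 0.48 and 0.50 as NaCl/oxaliplatin). In each treatment with topotecan they were largest at 6 h, though no change from 6 to 24 h passed. Topotecan/D5W rats read 11.76, 11.85, 11.86 and 11.95 at 6 h, against 10.75, 11.00, 11.11 and 11.24 in NaCl/D5W rats. D5W/topotecan rats read 11.75, 11.87, 11.94 and 12.09, against 10.95, 11.03, 11.17 and 11.33 in D5W/NaCl rats. Both topotecan groups were narrow and stood apart from the controls. NaCl/oxaliplatin rats read 11.37, 11.43, 11.58 and 11.62, against the NaCl/D5W rats. Oxaliplatin/NaCl rats read 11.55, 11.57 and 11.65, against the D5W/NaCl rats. Oxaliplatin by itself thus also lay above the controls, though by less. Topotecan/oxaliplatin rats read 11.70, 11.91, 11.94 and 11.94, against the NaCl/D5W rats. Oxaliplatin/topotecan rats read 11.91, 12.08, 12.09 and 12.38, against the D5W/NaCl rats. In each comparison every treated rat was above every control, as were those of 11.4% to 19.7% of all probe sets at 6 h. The Hif1a differences lay at the 91.2 to 95.8 percentile of all probe sets. Hif1a rose by 0.83 (SE 0.12) with topotecan/D5W, by 0.79 (SE 0.16) with D5W/topotecan, by 0.85 (SE 0.12) with topotecan/oxaliplatin, by 1.00 (SE 0.16) with oxaliplatin/topotecan and by 0.48 (SE 0.12) with NaCl/oxaliplatin, with adjusted p of limma of 2.55e-07 to 0.00352. The oxaliplatin/NaCl difference was nearly the same as the last, 0.47 (SE 0.17), with 3 rats, and did not pass (adjusted p 0.0415). It passed after a second quantile normalization (0.49, adjusted p 0.00817) and with the animal set, the lower or higher animal numbers of a group, as a block (0.44, adjusted p 0.0039). These are folds of 1.39 to 2.00. The NaCl/oxaliplatin call was lost without animal 81 or 82 or control animal 3 or 4 (0.38 to 0.47, adjusted p 0.0105 to 0.0262).

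At 24 h the Hif1a differences were 0.34 to 0.55, and every treated group lay above its controls without overlap. In the same comparisons 21.5% to 28.6% of all probe sets lay wholly above their controls at 24 h, 33.4% to 61.1% were called in either direction, and the Hif1a differences lay at the 77.2 to 81.1 percentile. The lowest treated values were 11.12 in D5W/topotecan and oxaliplatin/NaCl rats, and the highest control value was 11.08. NaCl/oxaliplatin (0.50, SE 0.12), topotecan/oxaliplatin (0.55, SE 0.12) and oxaliplatin/topotecan (0.55, SE 0.17) passed, with adjusted p of limma of 0.00052, 0.000137 and 0.00455. Topotecan/D5W (0.34, SE 0.13), D5W/topotecan (0.39, SE 0.17) and oxaliplatin/NaCl (0.42, SE 0.17) did not (adjusted p 0.0323 to 0.0536). All 3 passed after a second quantile normalization (0.39 to 0.51, adjusted p 0.00173 to 0.00678) and with the animal set as a block (0.31 to 0.39, adjusted p 0.00289 to 0.00911). The oxaliplatin/topotecan call was lost without animal 72 or any of the 3 control animals (0.48 to 0.58, adjusted p 0.0103 to 0.0204).

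At 1 h Hif1a passed in no comparison with vehicle, with differences of -0.27 (SE 0.16) after oxaliplatin/topotecan to 0.33 (SE 0.16) after oxaliplatin/NaCl. Oxaliplatin/topotecan rats were the most spread, at 10.10, 10.29, 10.76 and 11.21, against 10.66, 10.75, 11.01 and 11.01 in D5W/NaCl rats. Without animal 67, the rat at 11.21, the difference was -0.47 and passed downwards (adjusted p 0.00747).

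**Figure D2:**
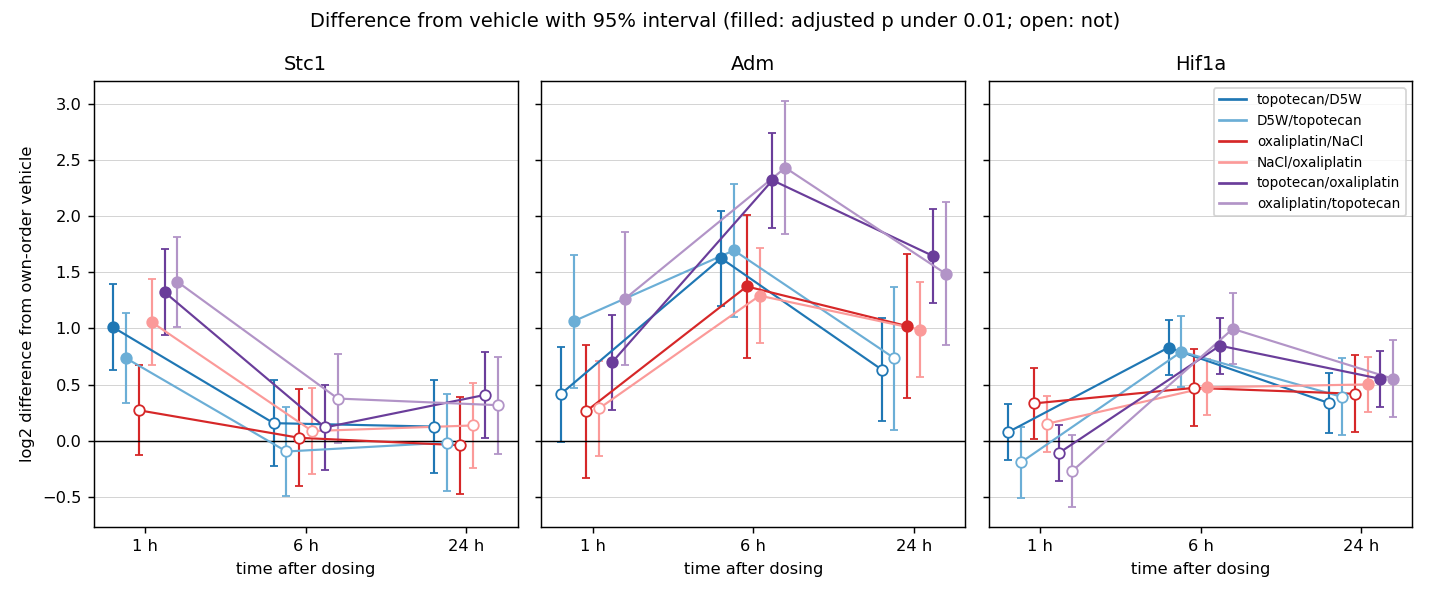
Difference from the own-order vehicle (log2, vertical axis) of Stc1, Adm and Hif1a at 1, 6 and 24 h for the 6 treatments, with 95% intervals of limma; filled points have an adjusted p under 0.01 and open points do not. Stc1 is highest at 1 h (up to 1.42), Adm at 6 h (up to 2.43) and Hif1a at 6 h (up to 1.00).

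The change of an effect between times had its own test, the treated-minus-vehicle difference at the later time less that at the earlier. From 1 to 6 h the Hif1a effect increased after topotecan/D5W (0.75, SE 0.17), D5W/topotecan (0.98, SE 0.22), topotecan/oxaliplatin (0.95, SE 0.17) and oxaliplatin/topotecan (1.26, SE 0.22), with adjusted p of limma of 2.11e-05 to 0.000717, but not after oxaliplatin/NaCl (0.14, SE 0.23) or NaCl/oxaliplatin (0.33, SE 0.17). The Adm effect increased after topotecan/D5W (1.21, SE 0.29, adjusted p 0.0013) and topotecan/oxaliplatin (1.62, SE 0.29, adjusted p 3.53e-05), and the other 4 changes, 0.63 to 1.17, did not pass. Both increases include the change in the shared NaCl/D5W controls, where Adm moved by -0.42 (SE 0.21, adjusted p of limma 0.325) from 1 to 6 h. In D5W/NaCl controls it moved by -0.12 (SE 0.29). The Stc1 effect decreased after topotecan/oxaliplatin (-1.20, SE 0.27, adjusted p 0.00044) and oxaliplatin/topotecan (-1.04, SE 0.28, adjusted p 0.00313), while the other 4 changes, -0.97 to -0.25, did not pass. From 6 to 24 h none of the 3 genes passed in any treatment. The Adm changes over that interval were all negative, -0.99 to -0.30, and 4 of the 6 had an unadjusted p under 0.05. Among all probe sets, the change from 1 to 6 h passed for 24.2% with topotecan/D5W and 30.7% with D5W/topotecan, for 1.38% with oxaliplatin/NaCl and 5.09% with NaCl/oxaliplatin, and for 26.7% with topotecan/oxaliplatin and 26.9% with oxaliplatin/topotecan. From 6 to 24 h the shares were 16.3% and 12.7% for the 2 topotecan groups, 5.55% and 19.1% for the 2 oxaliplatin groups, and 24% and 20.9% for the combinations, each in the same order.

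The study set each combination beside its single agents. The Adm difference was above 0 in all 12 such comparisons, which share groups, and 3 passed: oxaliplatin/topotecan against oxaliplatin/NaCl at 1 h (1.00, SE 0.29, adjusted p of limma 0.00624), topotecan/oxaliplatin against NaCl/oxaliplatin at 6 h (1.03, SE 0.21, adjusted p 0.000227) and topotecan/oxaliplatin against topotecan/D5W at 24 h (1.01, SE 0.23, adjusted p 0.000425). At 6 h the topotecan/oxaliplatin rats, at 7.80 or more, did not overlap topotecan/D5W rats, at 7.65 or less, and the difference of 0.69 (95% interval 0.27 to 1.12) had an adjusted p of 0.0682. The oxaliplatin/topotecan differences at 6 h were 1.06 (0.42 to 1.69) against oxaliplatin/NaCl and 0.74 (0.14 to 1.33) against D5W/topotecan, with adjusted p of 0.0129 and 0.117. The 24 h call of Adm was lost without animal 35 (0.77, adjusted p 0.0166) and the 1 h call without animal 67 (0.59, adjusted p 0.0813) or animal 37 or 44 (0.94 and 0.92, adjusted p 0.0181 and 0.0246). Stc1 passed in 1 of 12, oxaliplatin/topotecan against oxaliplatin/NaCl at 1 h (1.14, SE 0.20, adjusted p 1.12e-05). Hif1a also passed in 1 of 12, the same comparison, where it was lower in the combination (-0.60, SE 0.16, adjusted p 0.00219), and this call was lost without animal 43, 61 or 62 (-0.50 to -0.44, adjusted p 0.018 to 0.0287). At 1 h oxaliplatin/topotecan and oxaliplatin/NaCl rats shared no code of their sample titles. For these 1 h calls the code cannot be told apart from the added topotecan.

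Of all probe sets, topotecan/oxaliplatin against topotecan/D5W called 0%, 1.32% and 29.6% at 1, 6 and 24 h, and against NaCl/oxaliplatin 39%, 17% and 15.9%. Oxaliplatin/topotecan against oxaliplatin/NaCl called 26.3%, 13.4% and 5.93%, and against D5W/topotecan 0.239%, 4.09% and 16.8%.

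No combination departed from the log2 sum of its single agents in any of the 3 genes (0 of 6 comparisons each at adjusted p under 0.01 by limma, with 1 of 6 each at an unadjusted p under 0.05). For Adm at 6 h the departures were -0.60 (95% interval -1.19 to -0.0015) for topotecan/oxaliplatin and -0.64 (-1.51 to 0.23) for oxaliplatin/topotecan, and at 24 h 0.02 (-0.60 to 0.64) and -0.27 (-1.14 to 0.60). The intervals thus leave room for departures of 1 log2 unit in the oxaliplatin/topotecan set at both times. For Hif1a all 6 departures were negative, -0.46 to -0.26. For Stc1 at 1 h the departure was -0.74 (-1.28 to -0.20) for topotecan/oxaliplatin and 0.41 (-0.16 to 0.97) for oxaliplatin/topotecan, with adjusted p of 0.422 and 0.667. Over all probe sets this test called 0%, 2.48% and 13.7% at 1, 6 and 24 h for topotecan/oxaliplatin and 0.176%, 4.42% and 11.7% for oxaliplatin/topotecan.

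Between topotecan and oxaliplatin, compared where the vehicles followed the same order, Hif1a passed at 1 h alone and Adm and Stc1 at no time (each with 1 of 6 at an unadjusted p under 0.05). At 1 h D5W/topotecan rats were 0.52 (SE 0.16) below oxaliplatin/NaCl rats (adjusted p of limma 0.00954). The Adm difference at 6 h was 0.33 (95% interval -0.09 to 0.75) for topotecan/D5W minus NaCl/oxaliplatin and 0.32 (-0.32 to 0.96) for D5W/topotecan minus oxaliplatin/NaCl. At 24 h the same differences were -0.35 (-0.81 to 0.10) and -0.29 (-0.88 to 0.30). Of all probe sets 32.8%, 14% and 17.9% were called at 1, 6 and 24 h between topotecan/D5W and NaCl/oxaliplatin, and 19%, 4.72% and 8.21% between D5W/topotecan and oxaliplatin/NaCl. The drug infused first had been in the rat longer at each time, and within a comparison this cannot be told apart from the agent. The other comparison of the same time has the drugs in the opposite positions, and the pair was not tested together. The compared groups also share no code of their sample titles at any time, so within a comparison the code cannot be told apart from the agent either.

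The order of infusion made no difference that passed in any of the 3 genes (0 of 9 comparisons each by limma, with 0 for Hif1a, 0 for Adm and 1 for Stc1 at an unadjusted p under 0.05). That 1 was Stc1 at 1 h, where the oxaliplatin/NaCl effect minus the NaCl/oxaliplatin effect was -0.78 (95% interval -1.34 to -0.23, adjusted p 0.396), so the call after NaCl/oxaliplatin and its absence after oxaliplatin/NaCl are not shown to differ. For Adm the order differences at 6 h were -0.07 (-0.80 to 0.66) for topotecan, 0.08 (-0.68 to 0.84) for oxaliplatin and -0.11 (-0.84 to 0.62) for the combination. Of all probe sets, order was called for 12.2%, 0% and 0% at 1, 6 and 24 h for topotecan, 0% at each time for oxaliplatin, and 9.85%, 0.00798% and 0% for the combination.

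Ordered by group mean, Adm was highest in oxaliplatin/topotecan rats at 6 h (8.25 ± 0.30, SD, n = 4), followed by topotecan/oxaliplatin rats at 6 h (8.07 ± 0.23) and at 24 h (7.58 ± 0.32). Only the last 2 of these differed by more than either SD, and no other neighbours among the 24 groups did. Hif1a was highest in oxaliplatin/topotecan rats at 6 h (12.12 ± 0.20, n = 4), and the 6 drug groups at 6 h filled places 1 to 5 and 7, with 2 of 23 neighbouring pairs apart by more than either SD. The 5 highest Stc1 means were those of the 5 treatments that passed at 1 h, led by oxaliplatin/topotecan (7.99 ± 0.32, n = 4), and no neighbouring pair was further apart than its SDs.

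At 1 h 3 of the 32 rats stood more than 1 log2 unit above the next rat of their own group in Adm. They were animal 67 (oxaliplatin/topotecan, Adm 8.42), animal 92 (D5W/topotecan, 8.43) and animal 79 (NaCl/oxaliplatin, 7.53), while the other 29 rats ranged from 5.62 to 7.13. These rats had the highest Stc1 of all rats at 1 h, at 8.37, 8.43 and 8.44, against 6.20 to 8.11 in the others. They were also high in Il6, the gene of the inflammatory cytokine interleukin 6, at 11.00, 7.53 and 7.79 in animals 67, 92 and 79, against 4.74 to 7.55 in the other 29, the highest of which was a topotecan/oxaliplatin rat. Il1b, the gene of interleukin 1 beta, read 13.50, 12.58 and 12.87 in them, against 8.42 to 12.06. The mean of the 11 listed genes of the NF-kB and STAT3 pathways was 10.39, 10.00 and 9.83, against 8.80 at most in the other rats of their groups. Each also had the highest Hif1a of its own group, at 11.21, 10.99 and 11.53 in animals 67, 92 and 79, against 10.76, 10.71 and 11.06 in the next rat, though all 3 lay within the 10.10 to 11.56 of the other 29 rats. The 3 rats share a title code with 5 further rats at 1 h, in 4 groups in all, and no control rat at 1 h carries it. The part of that code, or of the inflammatory signal, in the Adm and Stc1 values was not tested.

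**Figure D3:**
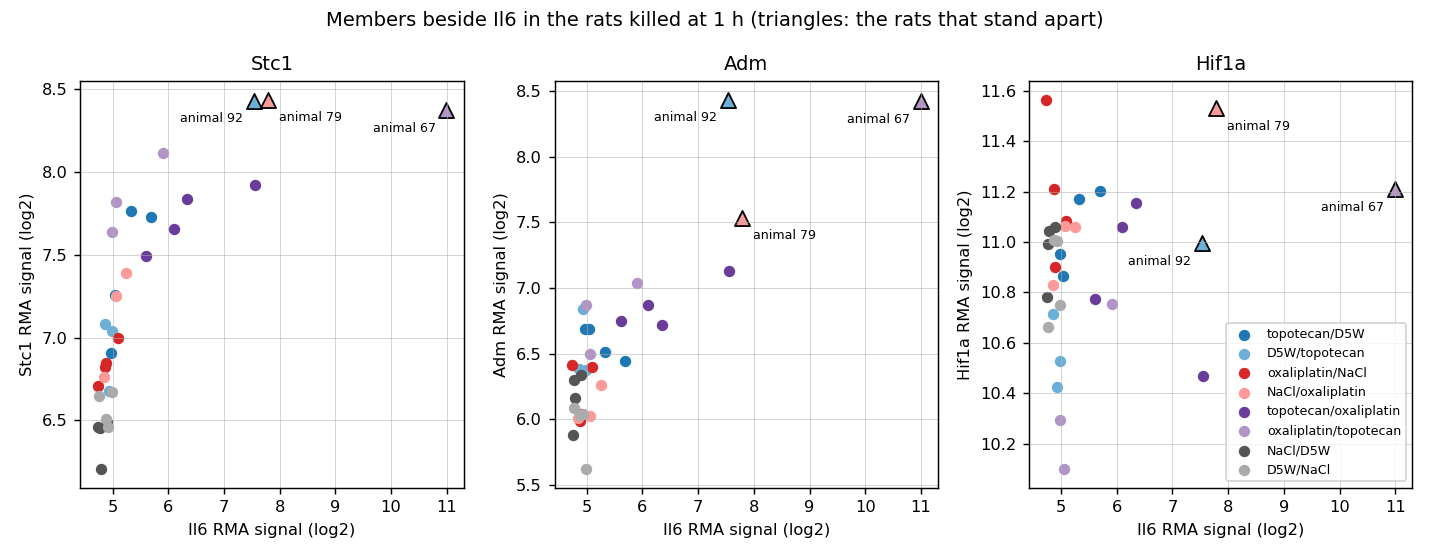
Stc1, Adm and Hif1a (log2 RMA signal, vertical axes) beside Il6 (log2 RMA signal, horizontal axes) in the 32 rats killed at 1 h, coloured by infusion group, with triangles for animals 67, 79 and 92. These 3 rats are the highest in Stc1 and Adm and lie at 7.53 to 11.00 in Il6, while their Hif1a lies within the range of the other rats.

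Around Hif1a, the other HIF alpha subunit on the array, Epas1, which encodes HIF-2 alpha, rose in 10 of 18 comparisons, 4 at 6 h (0.70 to 1.24) and 6 at 24 h (0.75 to 1.79). Epas1 was measured with Hif1a as 2 of the 5 HIF subunits listed. Of 11 measured genes of oxygen sensing and HIF control, at most 3 rose and at most 5 fell in any comparison. Vhl, which recognises hydroxylated HIF alpha, rose in 14 of 18 comparisons by 0.29 to 0.58, and Egln1, the main prolyl hydroxylase in normal oxygen, fell in 8 of 18 by 0.26 to 0.49. Egln3, a hydroxylase that is itself a HIF target, rose after topotecan/oxaliplatin at 6 h (0.62) and NaCl/oxaliplatin at 24 h (0.43) and passed nowhere else. Crebbp, a coactivator of HIF-1, rose in 8 of 18, 4 of them at 1 h (0.73 to 1.05, in the treatments with topotecan). Eloc, a subunit of the Vhl ligase complex, fell in 11 of 18. The median difference of this list stayed between -0.16 and 0.17, against -0.14 to 0.03 for all probe sets. The share of all probe sets that passed at 1 h was 0.136% to 9.77% upwards and 0.0239% to 32.9% downwards. At 6 h it was 3.78% to 17% upwards and 7.25% to 27.6% downwards, and at 24 h 16.1% to 25.9% and 17.3% to 35.2%.

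Among HIF targets outside glycolysis, 19 of 24 listed were measured. At 6 h 3 to 10 of them rose and 0 or 1 fell, and their median was 0.22 to 0.38, against -0.09 to 0.02 for all probe sets. The share of all probe sets that passed upwards was 3.78% to 17% at 6 h and 16.1% to 25.9% at 24 h. Downwards it was 7.25% to 27.6% and 17.3% to 35.2%. Like Adm, Angptl4, a secreted regulator of lipid metabolism, and Hmox1, which degrades haem, rose in all 6 treatments at 6 h, by 1.34 to 2.60 and 1.59 to 2.12. Bhlhe40, a transcriptional repressor, did so by 0.73 to 1.40. Ddit4, an inhibitor of mTOR signalling, rose at 1 h in 5 of 6 treatments (1.11 to 2.16, with NaCl/oxaliplatin at 0.69 not passing), at 6 h in 1 (oxaliplatin/topotecan, 0.74) and at 24 h in 4. Vegfa, the vascular growth factor, rose at 6 h after topotecan/oxaliplatin alone (0.43) and at 24 h in 5 of 6 treatments (0.52 to 0.98). Lox, Plod2 and P4ha2, enzymes of collagen maturation, rose in all 6 treatments at 24 h, by 1.28 to 1.81, 0.83 to 1.57 and 0.54 to 1.14. Tfrc, the transferrin receptor that red cell precursors carry, fell in all 6 at 24 h (-2.56 to -1.49).

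The glycolytic targets passed in both directions. Of 17 measured of 19 listed, 0 to 2 rose and 0 to 3 fell at 1 h, 0 to 7 rose and 2 to 4 fell at 6 h, and 3 to 8 rose and 2 or 3 fell at 24 h. Over all probe sets 16.1% to 25.9% passed upwards and 17.3% to 35.2% downwards at 24 h, and 3.78% to 17% upwards and 7.25% to 27.6% downwards at 6 h. Whether the counts of the list differ from these shares was not tested. Slc2a3, a glucose transporter, rose in 4 treatments at 6 h (0.80 to 1.03), and Pfkfb3, an activator of glycolysis, in 5 (0.52 to 0.96). Hk1 and Pfkl, which encode a hexokinase and a phosphofructokinase, fell in all 6 treatments at both 6 and 24 h, Hk1 by 0.50 to 1.34 and Pfkl by 0.49 to 1.05. Ldha passed in 1 comparison, topotecan/oxaliplatin at 6 h.

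The adrenomedullin system was measured in 10 of 14 listed genes, Adm included. Adrenomedullin acts through the receptor Calcrl with Ramp2 or Ramp3, Pam completes the peptide, Mme can degrade it and Ackr3 is a scavenger receptor for it. Ackr3 rose at 1 h after topotecan/D5W (1.42) and D5W/topotecan (1.04) and after topotecan/oxaliplatin (2.19) and oxaliplatin/topotecan (2.18), was 0.97 after oxaliplatin/NaCl and 1.31 after NaCl/oxaliplatin without passing, and passed at neither 6 nor 24 h. At 6 h, when Adm itself was highest, Ramp3 rose in 4 treatments (0.91 to 1.51) and Pam in 3 (0.61 to 0.69), and Calcrl and Ramp2 passed in none. At 24 h Pam (0.92 to 1.68) and Mme (0.99 to 1.60) rose in 6 treatments, Ramp2 in 5 (0.88 to 1.51), Ramp3 in 4 (0.79 to 1.37) and Calcrl in 2 (0.58 and 0.80). The median of the list at 24 h was 0.55 to 1.39, against -0.11 to 0.03 for all probe sets. Of these probe sets 0.136% to 9.77% passed upwards at 1 h, 3.78% to 17% at 6 h and 16.1% to 25.9% at 24 h. Stc2, the other stanniocalcin, is not analysed here.

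**Figure D4:**
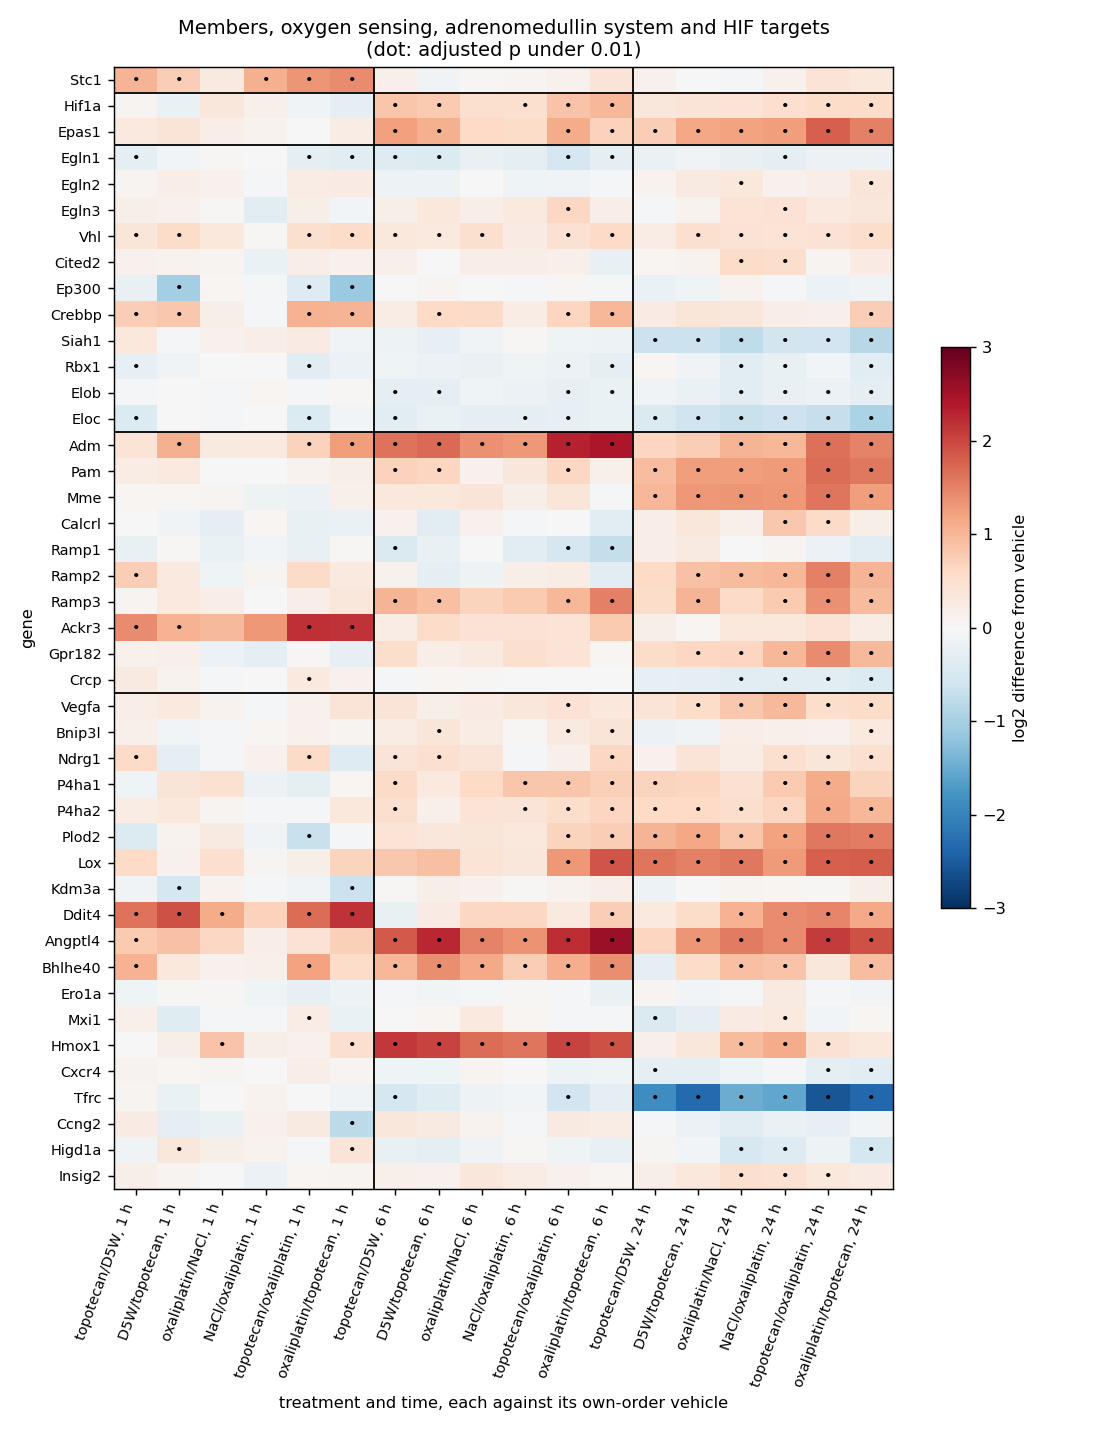
Difference from the own-order vehicle (log2, colour scale) of Stc1, Hif1a and Epas1, 11 genes of oxygen sensing and HIF control, 10 of the adrenomedullin system with Adm, and 19 further HIF targets (rows), for the 6 treatments at 1, 6 and 24 h (columns); a dot marks an adjusted p under 0.01. Stc1 and Ackr3 are marked at 1 h alone, Adm, Hmox1 and Angptl4 in all 6 treatments at 6 h, and Lox, Plod2, Pam and Mme in all 6 at 24 h.

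At 1 h, when Stc1 was high, 0 or 1 of 8 endothelial markers rose and 0 to 2 fell, and 0 to 2 of 10 stromal markers rose. Of the 5 B cell markers measured, Blnk fell at 1 h in each treatment with topotecan (-1.67 to -0.59). Ebf1 and Ms4a1 fell after D5W/topotecan (-0.96 and -0.83) and oxaliplatin/topotecan (-1.32 and -1.09), and Cd79b rose after topotecan/oxaliplatin (0.69). No B cell marker passed at 1 h after oxaliplatin alone. At 6 h 1 to 6 endothelial, 1 to 7 stromal and 0 to 5 of 8 macrophage markers rose and none fell. Other lists moved at 6 h as well: 0 to 3 of 8 neutrophil markers, 3 to 5 of 8 T cell markers and 0 to 6 of 7 megakaryocyte markers rose, with none falling, and 1 to 4 of 8 erythroid markers fell and 0 or 1 rose. Among them Cxcr2, a chemokine receptor of neutrophils, rose in 5 treatments (0.81 to 1.40), Cd3e, a chain of the T cell receptor complex, and Cd5 in 6, and Epor, the erythropoietin receptor, fell in 6 (-1.54 to -0.59). Of the B cell markers, Ms4a1 rose at 6 h in each treatment with topotecan (1.10 to 1.47), Cd79b rose after topotecan/D5W (0.63) and none fell. The endothelial mean was 8.81 to 9.49 in treated rats, against 8.56 to 8.99 in control rats, and the stromal mean 9.47 to 10.52, against 9.59 to 10.02. After oxaliplatin/topotecan at 6 h, where Adm and Hif1a were highest, 1 endothelial and 2 stromal markers rose, with list medians of 0.06 and 0.16. In the same comparison 5 of 8 T cell markers rose, among them Cd3d (1.29) and Cd3e (1.26), and no megakaryocyte marker passed. At 24 h 5 to 8 endothelial, 8 or 9 stromal and 6 to 8 macrophage markers rose, and 7 of 8 erythroid markers fell in every treatment. Over all probe sets 0.136% to 9.77% passed upwards at 1 h, 3.78% to 17% at 6 h and 16.1% to 25.9% at 24 h. Downwards, 0.0239% to 32.9% passed at 1 h, 7.25% to 27.6% at 6 h and 17.3% to 35.2% at 24 h. The erythroid mean was then 10.38 to 11.65 in treated rats, against 12.51 to 12.94 in control rats. T cell markers moved at 24 h as well, with a mean of 8.207 to 9.252, against 7.412 to 7.675. The megakaryocyte mean was 11.415 to 12.953, against 11.644 to 12.055. The part of these shifts in the Adm and Hif1a values at 6 and 24 h was not tested.

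Across the 24 group means, the genes most like Hif1a were Fyttd1 (Pearson's r 0.957), Rnf149 (0.95), Cd200r1 (0.949), Retreg1 (0.949) and Il1r2 (0.944). For Adm they were Fst (0.946), Tmem86a (0.944), Neurl3 (0.94), S1pr1 (0.932) and Vmp1 (0.932), and for Stc1 Adamts4 (0.917), Fbxo27 (0.905), Ackr3 (0.899), Rbm20 (0.896) and Slc25a22 (0.895). These were the highest of 7809 genes and are given without a test, since the means share rats, arrays and normalization. Among themselves the 3 genes were unlike over the same 24 means: r was 0.695 between Hif1a and Adm, 0.111 between Adm and Stc1 and -0.506 between Hif1a and Stc1.

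The titles also carry codes that divide the rats of a group into sets. At 1 and 6 h the controls share a code with topotecan/D5W and oxaliplatin/NaCl rats only, so for the other 4 treatments the code cannot be told apart from the treatment at these times. At 24 h the same holds for D5W/topotecan and oxaliplatin/topotecan rats, which share no code with their D5W/NaCl controls. Where it could be compared, Adm at 6 h was 1.42 and 1.83 above controls within the 2 codes after topotecan/D5W and 1.11 and 1.52 after oxaliplatin/NaCl. Hif1a was 0.98 and 0.68 above controls after topotecan/D5W and 0.59 and 0.35 after oxaliplatin/NaCl. Stc1 at 1 h was 0.75 and 1.27 above controls after topotecan/D5W and 0.26 and 0.28 after oxaliplatin/NaCl.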

How the data were processed

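Gene expression in femoral bone marrow was measured on Affymetrix rat arrays (GeneChip Rat 230 2.0), 1 array for each of 93 rats, from RNA with an integrity number of at least 7.5. The authors left out 1 outlier array, normalized the rest by RMA and removed probe sets whose probes disagreed (pvac), and the deposited values are on the log2 scale. Array medians were 8.79 to 9.3, arrays correlated at 0.831 to 0.995, and no 2 arrays were identical (0 pairs). Every value column was mapped to a sample through its labels.

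From the 12560 deposited probe sets, 28 array controls were removed and 12532 were tested, of which 10002 carried 1 gene symbol, 292 several and 2238 none. limma 3.58.1 in R 4.3.3 was fitted with the groups of NaCl/D5W order in 1 fit and those of D5W/NaCl order in another, and with all 24 groups for order. P-values were adjusted by Benjamini-Hochberg within each comparison, and the fitting code was tested on simulated data. Exact two-sided permutation tests over rats, and the descriptions, were made with Python 3.11.15, numpy 2.4.6, pandas 2.3.3 and scipy 1.17.1. The number of arrays limits the precision. The labels give each sample as a separate rat.

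Genes named are the 3 members, genes of fixed lists, and for each member the 5 genes of highest Pearson correlation over group means; Il6 and Il1b are on the NF-kB and STAT3 list. The members, the lists and the tests were chosen with earlier results of these data known. Alternatives were a second quantile normalization, median centring, a filter on low signal, other fits, vehicles, thresholds and probe sets, subsets of rats, and leaving out each rat. The comparisons of topotecan with oxaliplatin, of effects between times and of control groups were not rerun under them. RefSeq promoters of build GRCr8 were matched by symbol for 2 of the 3 members. Title codes whose meaning is not given in the sources used here were treated as possible batches. An animal set spans several of these codes, so setting it as a block does not separate code from treatment.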

Additional observations from a re-analysis of the deposited data

Results flagged for a closer look

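Each of the 3 genes was tested in each group of 4 rats, 63 tests in all over the same rats, and in 5 of them the highest or lowest rat had a gap to its neighbour over Dixon's limit, where chance gives about 1 in 20. In Adm these were animal 79 at 1 h (NaCl/oxaliplatin, 7.53) and control animal 14 at 1 h (D5W/NaCl, 5.62). In Stc1 they were control animals 2 at 1 h (NaCl/D5W, 6.20) and 9 at 6 h (NaCl/D5W, 6.13). In Hif1a it was animal 51 at 6 h (topotecan/oxaliplatin, 11.7), the lowest of its group and still above every control. Animals 67 and 92 were not past that limit in Adm.

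Effects that differed between times by limma, as the effect at 6 h minus that at 1 h, were those of Hif1a with topotecan/D5W (0.75), D5W/topotecan (0.98), topotecan/oxaliplatin (0.95) and oxaliplatin/topotecan (1.26). For Adm they were those with topotecan/D5W (1.21) and topotecan/oxaliplatin (1.62), and for Stc1 those with topotecan/oxaliplatin (-1.20) and oxaliplatin/topotecan (-1.04).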

How the results depend on the processing

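No value changed sign past the threshold under any alternative. Against vehicle, Hif1a passed in 0 of 18 comparisons with a fold above 2 required, since its fold was at most 2.00, and in 12 after a second quantile normalization or with the animal set as a block, against 8. Adm passed in 4, against 13, with the second animal set alone, and Stc1 in 3, against 5, with the first set alone, where groups hold about 2 rats. Of the 12 comparisons of combination with single agent, Hif1a passed in 3 at an adjusted p under 0.05, in 3 after a second quantile normalization and in 2 with all 24 groups in 1 fit, against 1, and Adm passed in 5 at an adjusted p under 0.05, against 3. Without animals 67, 79 and 92, an alternative chosen after seeing the data, Adm passed in 9, Stc1 in 4, against 1, and Hif1a in 2. These rats were picked for their Adm value, so the lower spread of Adm is by construction. Leaving out each rat in turn gave 12 to 14 calls against vehicle for Adm, 7 to 9 for Hif1a and 4 to 5 for Stc1, and 2 to 6, 0 to 2 and 1 to 2 for the combinations. Departures and order stayed at 0 for the 3 genes in each setting run for them. Fitted one time at a time, the 1 h calls of Stc1 after D5W/topotecan and NaCl/oxaliplatin were lost (adjusted p 0.0465 and 0.244). The cause of these moves was not tested. With a filter at the lower quartile of mean signal Adm and Stc1 were not tested, since their probe sets lay at the 7.75 and 7.32 percentile. Of the single differences, 943 kept their call, 31 moved, 48 gained and 40 lost a call under the other settings. No paired analysis was possible because each animal number belongs to 1 group.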
